A study of Mus musculus with 4 samples.

Results

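The transcription factors of the primitive streak and nascent mesoderm that were followed here were Mesp1, Eomes, Mixl1, Gsc, Lhx1, Evx1, Foxa2 and Otx2, 8 of the 18193 genes measured. They were taken by symbol from the array's probe sets with exactly 1 gene symbol, and each gene was read on the probe set with the highest mean over the 4 arrays. All 8 were measured, on 10 probe sets in total. The arrays compared 2 sorted populations of Flk-1 positive cells, with Flk-1+/Etv2+ rep1 and rep2 set against Flk-1+/Etv2- rep1 and rep2. All the cells came from TT2 mouse embryonic stem cells that were heterozygous for a Venus reporter knocked into Etv2, so both populations carried 1 reporter allele. They had been differentiated on OP9 stromal cells for 5 days by the sample labels, and for 4 to 5 days by the design text. The populations differed in Venus signal at the sort, and whether the reporter line was a single clone is not given in the sources used here.

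The primitive streak is the region of the gastrulating embryo through which epiblast cells leave to become mesoderm and definitive endoderm. Nodal, Wnt and BMP signals induce it, and T-box, homeobox and bHLH factors then divide it, with Evx1 towards its posterior end, Mixl1, Eomes and Mesp1 in the cells that leave it, and Gsc, Lhx1, Foxa2 and Otx2 towards its anterior end and the tissues in front of it. In embryonic stem cell cultures Mixl1, Eomes and Mesp1 mark the step before Flk-1 positive mesoderm takes on blood, vascular or cardiac character.

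Values are RMA expression levels in log2 units per probe set, and differences are in the same units, where 1 unit is 2-fold. Levels of different probe sets are not comparable with each other, and the small number of arrays limits the precision. The array medians lay between 5.46 and 5.52, and no 2 arrays held identical values. Of the genes of the sort, Etv2 was 0.57 higher in Flk-1+/Etv2+ cells (SE 0.13) and Kdr, which encodes Flk-1, differed by 0.13 (SE 0.12). Etv2 measured 12.64 and 12.41 in Flk-1+/Etv2+ cells and 12.03 and 11.87 in Flk-1+/Etv2- cells. The Flk-1+/Etv2- cells therefore did not lack Etv2 RNA, as the 90th percentile of probe sets was 9.90 on each of their arrays. The labels do not say that rep1 and rep2 came from separate cultures, so p-values reflect only how far these arrays spread, and that spread may be technical. In RNA of whole sorted populations, fewer cells that express a gene and less RNA per cell cannot be told apart.

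All 8 factors had a lower mean in Flk-1+/Etv2+ than in Flk-1+/Etv2- cells, and all 8 were also higher on rep1 than on rep2 within each population. The relative size of these differences varied between the genes. Mesp1 and Lhx1 differed mainly between the populations, as did Eomes on the brighter of its 2 probe sets, while Mixl1, Gsc and Foxa2 differed more between the array numbers than between the populations, and Otx2 and Evx1 differed in both ways. In neither comparison did a factor reach an adjusted p of 0.05.

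**Figure D1:**
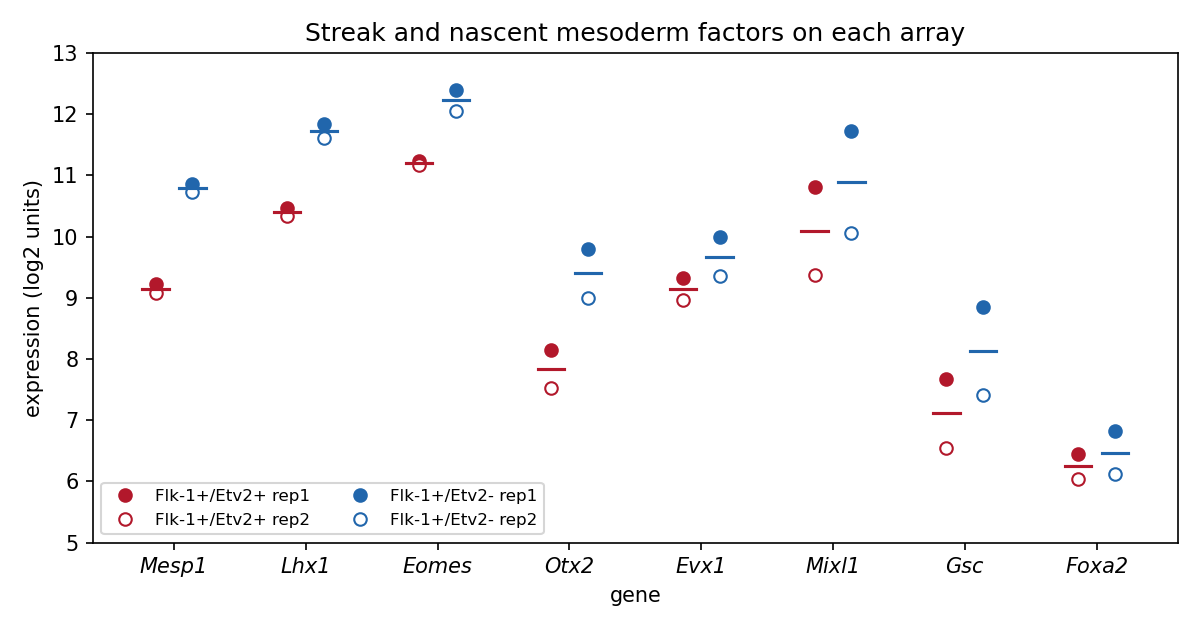
Expression of each factor (log2 units, vertical axis) on the 4 arrays, with Flk-1+/Etv2+ in red and Flk-1+/Etv2- in blue, rep1 filled, rep2 open, and short lines at the means. The red and blue points of Mesp1, Lhx1, Eomes and Otx2 are well apart, whereas those of Mixl1, Gsc and Foxa2 interleave.

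Mesp1, a bHLH factor switched on as mesoderm leaves the streak and needed for the earliest cardiac mesoderm, measured 9.23 and 9.07 in Flk-1+/Etv2+ cells and 10.86 and 10.73 in Flk-1+/Etv2- cells. Both Flk-1+/Etv2+ arrays were low and the groups did not overlap, with a wide gap between the nearest arrays. The difference was -1.64 (SE 0.11, n = 2 arrays per population), which puts Flk-1+/Etv2+ cells at 0.320 times the level of Flk-1+/Etv2- cells (limma adjusted p = 0.0670). Among the 18193 genes, ordered from the most negative difference, it ranked 12, and it was nearly the same within rep1 (-1.63) and within rep2 (-1.66).

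Lhx1, a LIM homeobox factor of the anterior streak and of lateral and intermediate mesoderm, measured 10.47 and 10.33 in Flk-1+/Etv2+ cells and 11.84 and 11.62 in Flk-1+/Etv2- cells. The populations were again apart, with 1.15 between the nearest arrays. The difference was -1.33 (SE 0.12, adjusted p = 0.0670). A second probe set gave 9.56 and 9.39 in Flk-1+/Etv2+ cells against 11.09 and 10.72 in Flk-1+/Etv2- cells, a difference of -1.43.

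Eomes, a T-box factor needed for mesoderm cells to leave the streak and for definitive endoderm, measured 11.24 and 11.17 in Flk-1+/Etv2+ cells and 12.40 and 12.06 in Flk-1+/Etv2- cells. The difference was -1.03 (SE 0.14, adjusted p = 0.0955), with the arrays apart. Its second probe set measured 11.22 and 10.68 in Flk-1+/Etv2+ cells against 12.19 and 11.57 in Flk-1+/Etv2- cells, a difference of -0.93. Both Eomes probe sets gave a similar difference between the populations, but rep1 exceeded rep2 by 0.07 and 0.34 on the first, in Flk-1+/Etv2+ and Flk-1+/Etv2- cells, and by 0.54 and 0.62 on the second.

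Otx2, a homeobox factor of the epiblast and the anterior embryo, measured 8.14 and 7.52 in Flk-1+/Etv2+ cells and 9.80 and 9.004 in Flk-1+/Etv2- cells. All Flk-1+/Etv2+ arrays lay below all Flk-1+/Etv2- arrays, but within each population rep1 was the higher array. The difference was -1.57 (SE 0.34), in size close to that of Mesp1, while its standard error was larger (adjusted p = 0.178).

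Evx1, a homeobox factor of the posterior streak, measured 9.32 and 8.97 in Flk-1+/Etv2+ cells and 9.99 and 9.35 in Flk-1+/Etv2- cells. The highest Flk-1+/Etv2+ array, rep1, lay only 0.03 below the lowest Flk-1+/Etv2- array, rep2. The difference was -0.53 (SE 0.25, adjusted p = 0.534). It was -0.21 without Flk-1+/Etv2- rep1, -0.35 without Flk-1+/Etv2+ rep2 and -0.84 without Flk-1+/Etv2- rep2.

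Mixl1, a paired-class homeobox factor of the streak that acts in mesoderm and endoderm formation, measured 10.82 and 9.37 in Flk-1+/Etv2+ cells and 11.73 and 10.06 in Flk-1+/Etv2- cells. The populations overlapped, since rep1 of Flk-1+/Etv2+ exceeded rep2 of Flk-1+/Etv2- by 0.75. The difference between the populations was -0.80 with a standard error nearly as large (SE 0.73, adjusted p = 0.782). Within rep1 it was -0.91 and within rep2 -0.69. Without Flk-1+/Etv2- rep1, which leaves both Flk-1+/Etv2+ arrays against rep2 alone, it was 0.03.

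Gsc, a homeobox repressor of the anterior streak and organizer, measured 7.67 and 6.55 in Flk-1+/Etv2+ cells and 8.85 and 7.41 in Flk-1+/Etv2- cells. As for Mixl1, the populations overlapped and both rep1 arrays were high. The difference was -1.02 (SE 0.60, adjusted p = 0.621), the same size as for Eomes but with a standard error over 4 times as large, at -1.17 within rep1 and -0.87 within rep2. Leaving out Flk-1+/Etv2- rep1 or Flk-1+/Etv2+ rep2 gave -0.30 and -0.46, and leaving out Flk-1+/Etv2+ rep1 or Flk-1+/Etv2- rep2 gave -1.58 and -1.74.

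Foxa2, a forkhead factor of the anterior streak, node and definitive endoderm, measured 6.45 and 6.04 in Flk-1+/Etv2+ cells and 6.82 and 6.12 in Flk-1+/Etv2- cells. The populations overlapped, and the difference was -0.22 (SE 0.28, adjusted p = 0.859). It was -0.37 within rep1, -0.08 within rep2 and 0.13 without Flk-1+/Etv2- rep1.

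Over the 18193 genes, 0% passed the adjusted threshold between the populations (2131 genes, 11.7%, had an unadjusted p under 0.05), and 4 of the 8 factors, Mesp1, Lhx1, Eomes and Otx2, had an unadjusted p under 0.05. The smallest adjusted p of any gene was 0.0670, a value that Mesp1 and Lhx1 shared with other genes, Pcdh8, Dll3, Zfpm2 and Hhex among them. The arrays were apart in the lower direction for 5 of the 8 factors, against 17% of all genes, and 22.4% of all genes were apart in the higher direction. A difference of at least 2-fold in the lower direction was found for 5 of the 8, against 0.423% of all genes. Eomes and Gsc lay just past that size, and the count was 4 on the mean over probe sets, 3 without Flk-1+/Etv2+ rep2 or without Flk-1+/Etv2- rep1, and 6 without either of the other arrays, with 0.291% of all genes on the mean over probe sets and between 0.407% and 0.803% with an array left out. The median difference was -1.02 over the 8 factors and 0.01 over all genes. The call of Mesp1 and Lhx1 depended on the setting: both passed with a trended prior variance and robust estimation (adjusted p = 0.0390), with genes of a mean below 6 left out (0.0429), after quantile normalization was run again (0.0407) and with arrays centred on their medians (0.0241), where Eomes passed as well (0.0302). Of all genes those settings called 112, 79, 135 and 281.

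**Figure D2:**
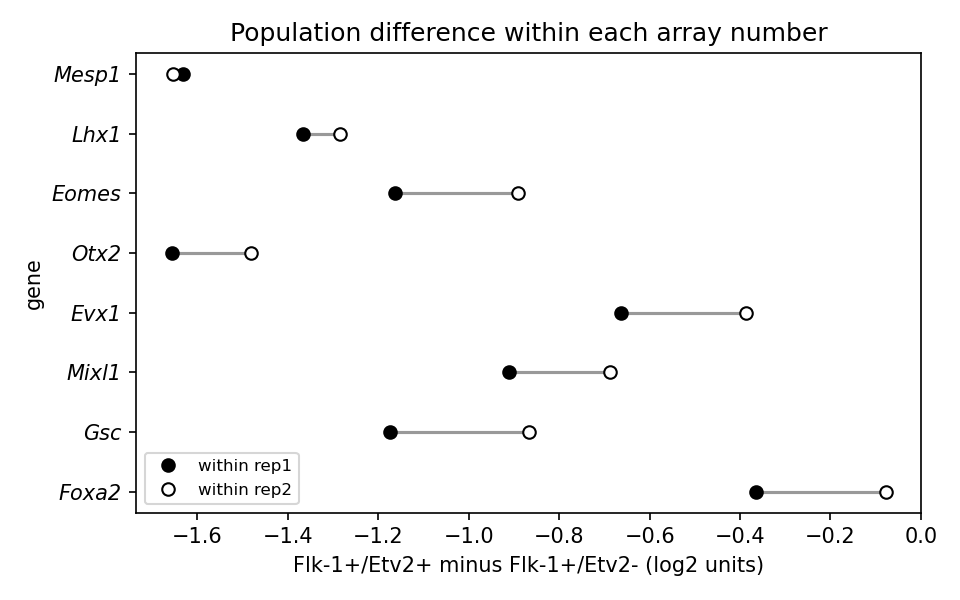
Flk-1+/Etv2+ minus Flk-1+/Etv2- difference (log2 units, horizontal axis) of each factor within rep1 (filled) and within rep2 (open), joined by a line. All 8 factors lie below 0 in both, from -1.66 for Otx2 to -0.37 for Foxa2 within rep1 and from -1.66 for Mesp1 to -0.08 for Foxa2 within rep2.

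The difference between the populations was below 0 for all 8 factors within rep1 and within rep2. For 7 of the 8 it was larger in size within rep1, where the median was -1.17, than within rep2, where it was -0.88. Mesp1 was the exception, with 0.02 between the 2 values, and Gsc moved the most, by 0.31. No spread is available for such a change with 1 array of each kind.

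The arrays numbered 1 were then set against those numbered 2, in a fit that kept the population as a term and left 1 residual degree of freedom per gene. The number is only a label, and the sources used here do not say whether arrays of 1 number shared a culture, a day or a hybridization. Mixl1 had the largest rep1 minus rep2 difference of the 8 factors, 1.55 (SE 0.09, adjusted p = 0.199), made up of 1.44 in Flk-1+/Etv2+ and 1.67 in Flk-1+/Etv2- cells, and it ranked 7 of the 18193 genes. Gsc followed at 1.28 (SE 0.11, adjusted p = 0.199), with 1.13 in Flk-1+/Etv2+ and 1.43 in Flk-1+/Etv2- cells, and ranked 18. Otx2 differed by 0.71 (SE 0.08, adjusted p = 0.199), Foxa2 by 0.55 (SE 0.10, adjusted p = 0.201) and Evx1 by 0.50 (SE 0.10, adjusted p = 0.201). Eomes, Lhx1 and Mesp1 differed by 0.20 (SE 0.10), 0.18 (SE 0.06) and 0.14 (SE 0.06). The smallest adjusted p of any gene in this limma fit was 0.199, a value that other genes such as Col1a2 and Fgf8 shared.

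All 8 factors were higher on rep1 in both populations, against 45.9% of all genes. A shift of at least 2-fold in both populations was found for 2 of the 8, Mixl1 and Gsc, and for 29 genes in all, 0.159% of those measured. Their median rep1 minus rep2 difference was 0.38 in Flk-1+/Etv2+ and 0.67 in Flk-1+/Etv2- cells, where all genes had 0.07 and 0.05. In the adjusted test 0% of all genes passed in limma (3616, or 19.9%, had an unadjusted p under 0.05, 2644 of them higher on rep1), and 5 of the 8 factors had an unadjusted p under 0.05. With only genes of a mean of at least 6, Mixl1, Gsc and Otx2 passed (adjusted p = 0.0358, 0.0370 and 0.0452), and with the trend and robust estimation Mixl1 and Gsc did (0.0412 and 0.0479).

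**Figure D3:**
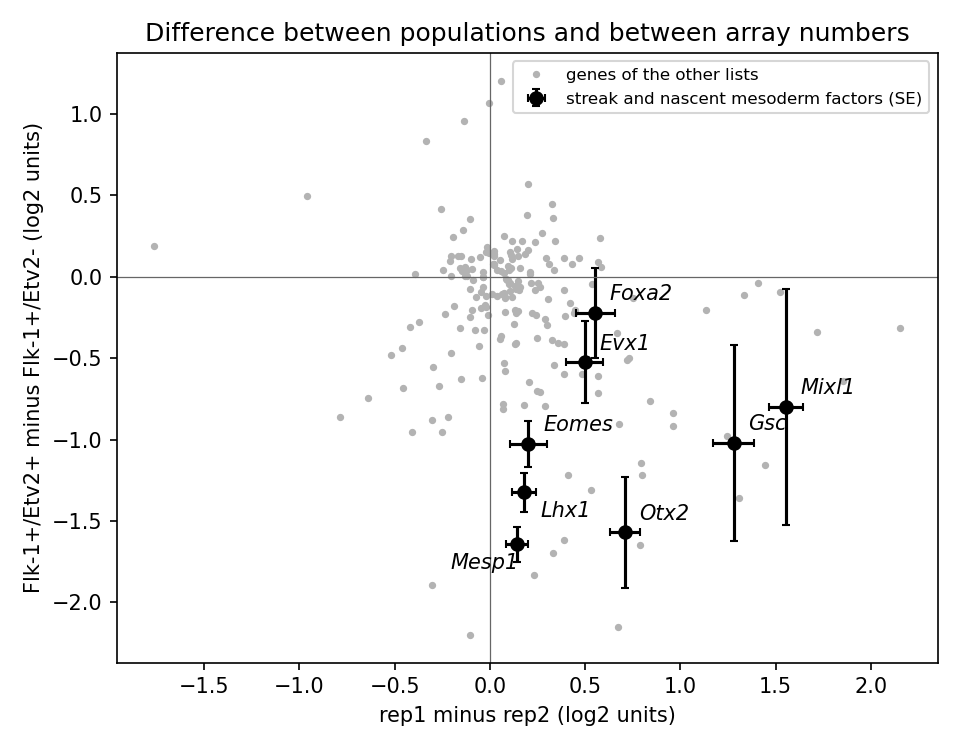
Flk-1+/Etv2+ minus Flk-1+/Etv2- difference (vertical axis) against the rep1 minus rep2 difference (horizontal axis), both in log2 units, for the 8 factors (black, bars are standard errors of the 2 fits) and for the genes of the other lists (grey). Mesp1, Lhx1 and Eomes sit low and near 0 on the horizontal axis, Mixl1 and Gsc far to the right, and Otx2 and Evx1 between.

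Set against each other, the population difference of Mesp1 was 11.7 times its array-number difference in size, that of Lhx1 7.48 times and that of Eomes 5.07 times. On their second probe sets the ratio was 5.27 for Lhx1 and 1.60 for Eomes, and on the mean over probe sets it was 6.15 and 2.49, so the ratio of Eomes differed between its probe sets. It was 2.22 for Otx2 and 1.06 for Evx1, and it was below 1 for Gsc (0.798), Mixl1 (0.515) and Foxa2 (0.401). Of all genes 50.5% differed more by array number than by population.

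Other measures moved with the array number. The list of OP9 stroma and fibroblast markers was higher on rep1 by a median of 0.50 in Flk-1+/Etv2+ and 0.42 in Flk-1+/Etv2- cells. Against 45.9% of all genes, 18 of the 23 members of this list were higher on rep1 in both. Its mean level was 7.18 and 6.38 in Flk-1+/Etv2+ cells and 7.30 and 6.74 in Flk-1+/Etv2- cells, and the collagen gene Col1a2 measured 9.79 and 7.96 in Flk-1+/Etv2+ cells and 10.02 and 8.41 in Flk-1+/Etv2- cells. No stromal marker can be at 0 on the RMA scale, and 10 of the 23 had a mean under 6. The 3' minus 5' signal of the Tfrc control probe sets, a measure of RNA integrity and labelling, was 1.91 and 1.21 in Flk-1+/Etv2+ cells and 1.46 and 0.85 in Flk-1+/Etv2- cells. That of Pcx was 0.92 and 0.58 in Flk-1+/Etv2+ cells and 1.06 and 0.85 in Flk-1+/Etv2- cells, so both were higher on rep1. That of Actb was 0.47 and 0.51 in Flk-1+/Etv2+ cells and 0.41 and 0.40 in Flk-1+/Etv2- cells, and that of Gapdh lay between -0.0418 and 0.0014 on all arrays, so these 2 controls moved little with the array number. The part of stromal RNA and of RNA integrity in the rep1 excess of Mixl1 and Gsc was not tested. Between the populations the stroma list had a median of -0.14, with 5 of 23 apart in the lower and 0 in the higher direction. Of all genes 17% and 22.4% were apart in those directions.

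The 29 genes that were at least 2-fold higher on rep1 in both populations held both stromal and streak genes. They included 6 of the 23 stromal markers, Col1a2, Col3a1, Col6a1, Col6a2, Fabp4 and Lpl. Beside Mixl1 and Gsc they included Fgf8, a growth factor of the streak, Nanog, a pluripotency factor of the epiblast, and Nkx1-2, a homeobox factor of the posterior streak, and these listed genes were singled out after their values were seen. Fgf8 measured 8.02 and 6.82 in Flk-1+/Etv2+ cells and 9.49 and 8.07 in Flk-1+/Etv2- cells, a pattern of levels like that of Gsc. Between the populations, 5 of these 6 stromal genes differed by between -0.34 (Col1a2) and -0.04 (Col6a1), and Fabp4 differed by -0.64, at 0.05 within rep1 and -1.33 within rep2. Fgf8 differed by -1.36 (SE 0.61, adjusted p = 0.502) and Nanog, whose mean over the 4 arrays was only 5.26, by -1.15.

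Likeness of pattern was measured as the Euclidean distance between the 4 array values, each gene centred on its own mean, among the 10179 genes whose mean reached 6. The closest pairs among the 8 factors were Evx1 with Foxa2 (0.309), Eomes with Lhx1 (0.315), Mesp1 with Lhx1 (0.324) and Mixl1 with Gsc (0.355), and the most distant pair was Mesp1 and Mixl1 (1.65). Nearest to Mesp1 over all these genes were Itga8, Dact1 and Fam184b (0.221 to 0.269), to Lhx1 Fam184b, Cachd1 and Wnt5b (0.122 to 0.164), and to Eomes Amer3, Pcsk5 and Vrtn (0.052 to 0.117). Nearest to Mixl1 were Sp8, Gsc and Lzts1 (0.342 to 0.422), and to Gsc Lzts1, Pmepa1 and Fgf8 (0.303 to 0.343). Otx2 was nearest to L1cam, Gna14 and Pdgfra (0.025 to 0.208), Evx1 to Cer1, Zfp703 and Dapk2 (0.071 to 0.083), and Foxa2 to Aplp1, Pcolce and Aplp2 (0.059 to 0.060). With 4 values per gene these distances describe the arrays and carry no test.

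The sequences before the start sites of Mesp1, Eomes, Lhx1 and Gsc are shown. The first 3 differed mainly between the populations, Eomes on its brighter probe set. Gsc differed in both ways, by -1.02 between the populations and by 1.28 between the array numbers. The sequences are the 250 bases before the annotated start, 5′ to 3′ on the gene's strand, from RefSeq on GRCm38.p6. RefSeq start sites were matched for 7 of the 8 factors, Mixl1 being the one not matched. Capitals mark matches, on either strand, to ATCAAAG (TCF/LEF, the factors of Wnt signalling), AGGTG (a T-box core), CAGAC (SMAD), AATNCACA (FOXH1, a Nodal pathway partner of SMADs), the paired homeodomain dimer motif (TAAT and ATTA with 3 bases between them) or CANNTG (E-box, bound by bHLH factors), and a CAGGTG counts as both a T-box core and an E-box.
Mesp1 (chr7:79793591-79793840, minus strand): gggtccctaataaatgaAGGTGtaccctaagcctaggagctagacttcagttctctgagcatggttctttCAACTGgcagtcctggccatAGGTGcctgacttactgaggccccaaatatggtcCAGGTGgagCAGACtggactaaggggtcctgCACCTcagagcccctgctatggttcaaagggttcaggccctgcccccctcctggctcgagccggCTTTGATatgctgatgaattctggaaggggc
Eomes (chr9:118477939-118478188, plus strand): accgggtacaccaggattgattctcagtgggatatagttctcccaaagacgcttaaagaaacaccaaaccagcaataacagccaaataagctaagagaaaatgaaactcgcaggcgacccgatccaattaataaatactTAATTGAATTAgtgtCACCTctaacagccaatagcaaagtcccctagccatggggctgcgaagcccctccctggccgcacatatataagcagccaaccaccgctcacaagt
Lhx1 (chr11:84525535-84525784, minus strand): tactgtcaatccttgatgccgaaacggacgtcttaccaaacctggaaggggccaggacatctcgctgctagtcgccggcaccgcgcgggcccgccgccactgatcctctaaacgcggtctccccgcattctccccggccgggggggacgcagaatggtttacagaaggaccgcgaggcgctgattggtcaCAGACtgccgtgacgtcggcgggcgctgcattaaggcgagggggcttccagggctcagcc
Gsc (chr12:104473237-104473486, minus strand): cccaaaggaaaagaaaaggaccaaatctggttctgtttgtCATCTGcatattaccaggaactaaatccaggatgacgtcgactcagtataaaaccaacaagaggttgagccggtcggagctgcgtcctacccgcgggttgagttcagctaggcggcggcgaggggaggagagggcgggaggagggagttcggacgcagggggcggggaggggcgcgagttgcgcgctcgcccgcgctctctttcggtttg

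In the Mesp1 window AGGTG or its reverse complement occurred 4 times, CANNTG 2 times, CAGAC 1 time and ATCAAAG 1 time, the last on the reverse strand from base -31 to base -25 before the start. The Eomes window held 1 dimer motif, from base -111 to base -101, and 1 AGGTG. The Lhx1 window held 1 CAGAC, and the Gsc window held 1 CANNTG. Of 32851 RefSeq windows of this length, ATCAAAG was found in 3.21%, the dimer motif in 0.463%, AGGTG in 46%, CAGAC in 42.2%, CANNTG in 66.2% and AATNCACA in 3.18%. The 7 factors had 12 such windows, several each for Otx2 and Foxa2, of which ATCAAAG was found in 1, the dimer motif in 1, AGGTG in 6, CAGAC in 3, CANNTG in 7 and AATNCACA in 0. A match is a description of the letters and not a binding site.

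The wider pathway was read from 10 lists of genes, from which the 8 factors were left out and in which a gene may stand in more than 1 list. The limma fit put 0 listed genes past the adjusted threshold. At an unadjusted p under 0.05, 844 of all genes (4.64%) were lower and 1287 (7.07%) higher. By the same measure 17 of 37 other streak genes were lower and 1 higher. Of 28 genes of the inducing signals, their antagonists and transducers, 8 were lower and 1 higher. Of 40 factors of the same families, 8 were lower and 0 higher. Of the genes acting after Mesp1 or Eomes 9 were lower and 3 higher, with Etv2, a gene of the sort, among the 3. Of the endoderm and of the epiblast markers 4 were lower and 2 higher each. The node list had 2 lower and 1 higher, the stroma list 3 lower and 0 higher, and the partners and the neural markers 1 lower and 0 higher each. The counts below are of arrays apart, found for 17% of all genes in the lower and 22.4% in the higher direction.

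Of the signals that induce the streak and their transducers, 28 were measured, 18 were apart in the lower and 2 in the higher direction, and the median difference was -0.26. Bmp4, a ligand made by the extraembryonic ectoderm and by ventral mesoderm, measured 11.03 and 10.96 in Flk-1+/Etv2+ cells and 11.81 and 11.74 in Flk-1+/Etv2- cells (difference -0.78, SE 0.09, adjusted p = 0.0802). The FGF receptor Fgfr1 differed by -0.62 (SE 0.09) and the Wnt effector Lef1 by -0.71 (SE 0.15). Lefty2, a Nodal antagonist, differed by -2.15 (SE 0.33), at 4.53 and 3.97 in Flk-1+/Etv2+ cells and 6.79 and 6.003 in Flk-1+/Etv2- cells.

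Other streak and nascent mesoderm genes had a median difference of -0.60, with 23 of 37 apart in the lower and 3 in the higher direction. At least 2-fold lower were 11 of the 37, against 0.423% of all genes. The protocadherin Pcdh8 measured 7.76 and 7.71 in Flk-1+/Etv2+ cells and 9.81 and 10.07 in Flk-1+/Etv2- cells. The Notch ligands Dll1 and Dll3 differed by -1.89 (SE 0.19) and -1.83 (SE 0.16), and the T-box factor Tbx6 by -1.62 (SE 0.20). Tbx6 was low, with a mean of 5.32 over the 4 arrays. Of the 37 genes 23 were higher on rep1 in both populations, against 45.9% of all genes. Among the 23 were Tbx6, by 0.36 in Flk-1+/Etv2+ and 0.41 in Flk-1+/Etv2- cells, and Dll3, by 0.42 and 0.03. Pcdh8 and Dll1 were not among them, at 0.05 and -0.10 in Flk-1+/Etv2+ and -0.26 and -0.51 in Flk-1+/Etv2- cells.

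Genes of the node and anterior streak, where Gsc, Foxa2 and Otx2 also act, had a median difference of -0.04, with 4 of 15 apart in the lower and 1 in the higher direction, and 9 of the 15 had a mean under 6. The Wnt antagonists Frzb and Dkk1 differed by -1.70 (SE 0.23) and -0.90 (SE 0.33), the Nodal and Wnt antagonist Cer1 by -0.59 (SE 0.25), and the Wnt receptor Fzd5 by 0.29 (SE 0.11). Cer1 measured 5.99 and 5.64 in Flk-1+/Etv2+ cells and 6.72 and 6.10 in Flk-1+/Etv2- cells. Of the 15 genes 11 were higher on rep1 in both populations, against 45.9% of all genes.

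Partners and cofactors of these factors had a median difference of 0.04. With 3 of 18 apart in each direction, this list lay near the shares of all genes (17% lower, 22.4% higher). The corepressor Tle3 had the smallest p of that list, at a difference of -0.53 (SE 0.10), followed by the histone demethylase Kdm6b at -0.24 (SE 0.11). The ubiquitin ligase Rlim and the corepressor Tle4 differed by 0.14 (SE 0.09) and 0.17 (SE 0.11).

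Transcription factors of the same families had a median of -0.06, with 15 of 40 apart in the lower and 4 in the higher direction, and 30 of the 40 had a mean under 6. Mesp2, the close relative of Mesp1 in presomitic mesoderm, measured 6.52 and 6.78 in Flk-1+/Etv2+ cells and 7.42 and 7.60 in Flk-1+/Etv2- cells, a difference of -0.86 (SE 0.13). The LIM homeobox factor Isl1 differed by -0.88 (SE 0.17) and the T-box factor Tbx2, at a mean of 5.54, by -0.95 (SE 0.21).

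Genes described as acting after Mesp1 or Eomes went both ways, with a median of -0.31. Of 21, 10 were apart in the lower and 4 in the higher direction. Etv2 is among the 4, and its direction was set by the sort on its reporter. Kdr, the other gene of the sort, overlapped. The GATA cofactor Zfpm2 measured 7.53 and 7.44 in Flk-1+/Etv2+ cells and 6.29 and 6.27 in Flk-1+/Etv2- cells, and the SoxF factor Sox17 differed by 0.96 (SE 0.12). The bHLH factor Hand2 differed by -0.96 (SE 0.14).

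**Figure D4:**
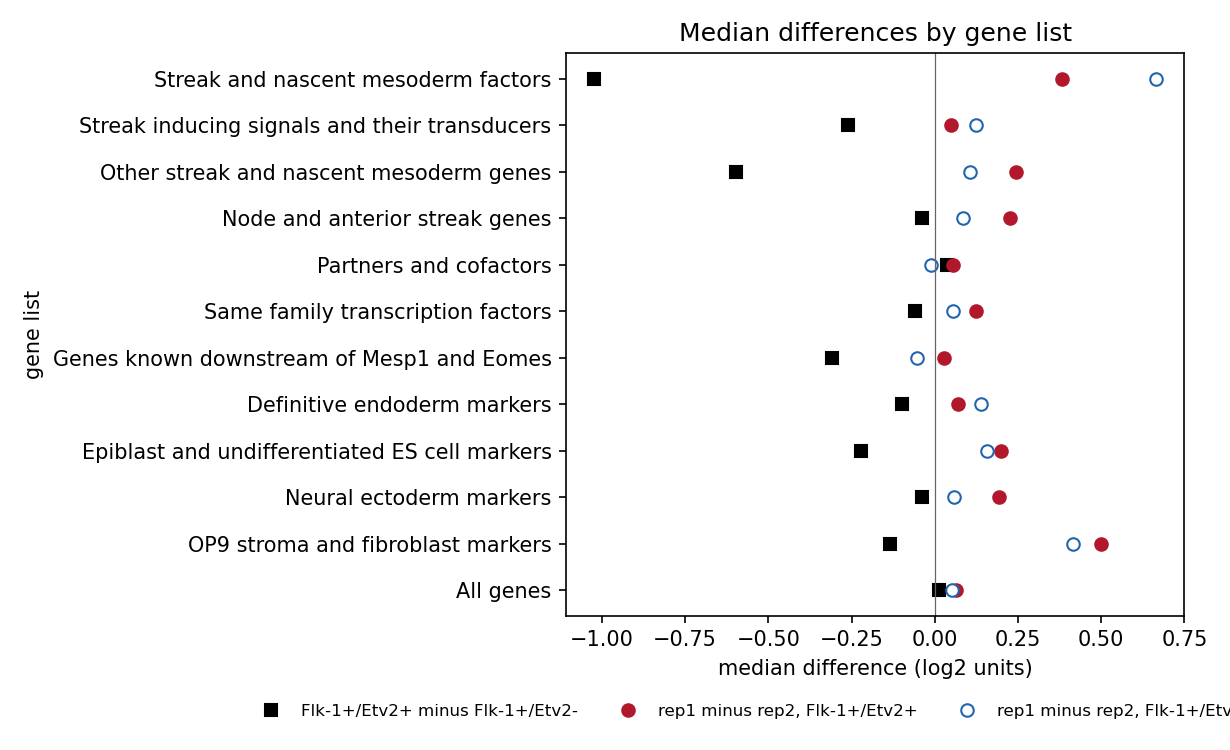
Median difference (log2 units, horizontal axis) for the 8 factors, each gene list and all genes: squares give Flk-1+/Etv2+ minus Flk-1+/Etv2-, filled red circles rep1 minus rep2 in Flk-1+/Etv2+ cells and open blue circles rep1 minus rep2 in Flk-1+/Etv2- cells. The 8 factors have the lowest square, at -1.02, and stroma markers have rep1 minus rep2 medians of 0.50 and 0.42 with a square at -0.14.

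Several of the factors are also known from other cell types that a sort on Flk-1 could hold. Definitive endoderm markers, set beside Foxa2, Gsc and Eomes, had a median difference of -0.10, with 7 of 21 apart in the lower and 3 in the higher direction, and list means of 7.34 and 7.23 in Flk-1+/Etv2+ cells and 7.43 and 7.33 in Flk-1+/Etv2- cells. Among them Krt18 and Epcam, an epithelial keratin and adhesion protein, differed by -0.81 (SE 0.10) and -0.58 (SE 0.10), while Hhex and Sox17, which endothelium also expresses, differed by 1.07 (SE 0.09) and 0.96 (SE 0.12). Of the 21 markers 14 had a mean of at least 6.

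Epiblast and undifferentiated ES cell markers, set beside Otx2 and Eomes, had a median of -0.22, with 6 of 18 apart in the lower and 3 in the higher direction, and list means of 7.74 and 7.47 in Flk-1+/Etv2+ cells and 8.06 and 7.79 in Flk-1+/Etv2- cells. Tdgf1, the Nodal co-receptor, differed by -1.22 (SE 0.38), Sall4 by -0.79 (SE 0.13), Lin28a by -0.36 (SE 0.11) and Dppa4 by 0.84 (SE 0.20). Tdgf1 measured 11.28 and 10.43 in Flk-1+/Etv2+ cells and 12.45 and 11.71 in Flk-1+/Etv2- cells, so that, like Otx2, it was lower in both Flk-1+/Etv2+ arrays and higher on both rep1 arrays.

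Neural ectoderm markers, where Otx2 also acts, had a median of -0.04, and 10 of the 15 had a mean under 6. Of the 15, 3 were apart in each direction, near the shares of all genes (17% lower, 22.4% higher). The list means were 5.19 and 5.02 in Flk-1+/Etv2+ cells and 5.23 and 5.13 in Flk-1+/Etv2- cells. Sox2, shared with the epiblast, measured 6.47 and 6.06 in Flk-1+/Etv2+ cells and 7.34 and 6.62 in Flk-1+/Etv2- cells. Its difference was -0.71 (SE 0.29). Map2 had the smallest p of that list, at a difference of -0.42 (SE 0.09) and a mean of only 3.59. Sox1, at a mean of only 4.73, and Tubb3 differed by 0.35 (SE 0.16) and 0.45 (SE 0.21). Of the stroma list, Cxcl12, Vcam1, Col1a1 and Acta2 had the smallest p between the populations. Their differences were -0.63 (SE 0.11), -0.33 (SE 0.10), -0.54 (SE 0.18) and -0.41 (SE 0.19). Vcam1 and Col1a1 were low, with means of 5.05 and 5.57. The part of endoderm, epiblast, neural or stromal cells in the differences of the 8 factors was not tested.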

How the data were processed

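Total RNA of 4 sorted samples was labelled with biotin by a 3' in vitro transcription kit and hybridized to 1 array each, per the labels' protocols. RMA, run by the authors under R 2.8.0 according to the submitters' processing notes, gave the deposited log2 level of each probe set, and the log base was read off the values. Groups and numbers came from the sample titles.

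Of 45101 probe sets, 64 controls were left out, 34945 had 1 symbol, and 18193 genes were kept, each on its brightest probe set. Symbols came from the platform annotation and were checked by Entrez identifier against RefSeq GRCm38.p6, with 0 changed. For the populations, limma 3.58.1 (lmFit, eBayes; R 4.3.3) was run two-sided with 2 residual degrees of freedom per gene, with Benjamini-Hochberg adjustment over all genes and a threshold of 0.05. The array numbers were compared with the population as a term. The fit was tested on simulated data with independent noise on each array. In the real data, deviations of same-numbered arrays correlated at 0.54 over genes, which the simulated data did not include. Named genes were the 8 factors, the genes of the sort, up to 4 genes of smallest p per list and 3 nearest genes per factor. The factors and the 10 lists were chosen with earlier results of these data known, and listed genes without a match were not used here. Alternatives changed the probe set rule, a filter at a mean of 6, the variance model, the normalization, the replicate block and the arrays included.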

Additional observations from a re-analysis of the deposited data

How the results depend on the processing

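Between the populations, the count of genes called in limma was 0 as reported. It was 79 with only genes of a mean of at least 6, 112 with the trend and robust estimation, 135 after quantile normalization run again and 281 with arrays centred on their medians. The corresponding counts of the 8 factors were 2, 2, 2 and 3, all lower in Flk-1+/Etv2+ cells. For array numbers, 0 genes became 229 with the filter (3 factors) and 146 with the trend and robust estimation (2 factors). Without the population as a term, 1863 genes and 2 factors had an unadjusted p under 0.05 for array numbers. The cause of these changes was not tested. Leaving out each array in turn called 0 genes (1429 to 1526 at an unadjusted p under 0.05), and the difference ranged from -1.63 to 0.033 for Mixl1, from -0.57 to 0.127 for Foxa2, from -1.74 to -0.30 for Gsc, from -0.84 to -0.21 for Evx1 and from -1.72 to -1.57 for Mesp1. With the replicate block, which treats the array numbers as pairs, 0 genes were called, 0 of the 8 factors among them, while 3678 genes and 7 of the 8 factors had an unadjusted p under 0.05, against 2131 and 4 without it, and the standard error for Mixl1 was 0.09 and for Gsc 0.11, with adjusted p = 0.0960 and 0.0942. Deviations of same-numbered arrays from their population means correlated at 0.54 over genes. The design text states no link between these arrays, and the cause of the correlation was not tested. Differences of the 8 factors kept their direction in every other setting run. An array left out of the array-number comparison leaves the difference of the other population alone, which is given above with no test.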
